A study of Saccharomyces cerevisiae with 12 samples.

Results

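Coenzyme Q, the lipid electron carrier of the mitochondrial inner membrane, is made in yeast by the products of the COQ genes. The 10 genes described here, COQ1, COQ2, COQ3, COQ4, COQ5, COQ6, CAT5 (also called COQ7), COQ8, COQ9 and COQ10, were chosen by name, and all 10 had values in each of the 4 deposited tables, out of 6078 gene names in all. RNA was sequenced from 4 groups of 3 libraries each of the budding yeast strain BY4741, a haploid laboratory strain of mating type a. Wild-type cells and cells of genotype set4[delta]::HIS3MX, called set4Δ below, in which a HIS3MX cassette replaces SET4, were grown in YPD at 30 °C to mid-log phase, either in air or for 18 h in hypoxia in anaerobe pouches. SET4 encodes a chromatin protein with a SET domain. The comparisons ask how the coenzyme Q genes respond to low oxygen and whether loss of Set4 alters their RNA levels.

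Coenzyme Q consists of a benzoquinone ring and a long isoprenoid tail. The tail is built from isoprenoid units of the mevalonate pathway, joined to a ring precursor, and the ring is then hydroxylated, decarboxylated and methylated by enzymes that assemble into a complex at the matrix face of the inner membrane. Reduced coenzyme Q passes electrons from dehydrogenases to complex III, and several of the ring hydroxylations use molecular oxygen.

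The values are normalized counts, which are reads per gene divided by a size factor of the library, and each table of 6 libraries was scaled on its own. By the step between low values, the libraries held 16700000 to 27600000 reads in the genes that a table lists. SET4 had 161 to 217 normalized counts in the wild-type libraries in air and 4898 to 8574 in hypoxia, against 0 to 3.78 and 16.6 to 26.0 in the set4Δ libraries, as labelled. STE2, the receptor gene of mating type a, stood at 3482 to 13149 normalized counts and STE3, its counterpart of mating type alpha, at 18.6 to 51.1. The labels do not say whether libraries came from separate cultures, so p-values measure the spread between these libraries, and in bulk RNA fewer cells cannot be told apart from less RNA per cell. Hypoxic library 3 was the highest of its group in both genotypes for 27.5% of 6018 genes and the lowest in both for 28.2%. For library 3 in air these shares were 9.23% and 14.9%. Wild-type hypoxic library 2 deviated as well. Its deviations correlated over genes at 0.75, 0.71 and -0.82 with those of set4Δ hypoxic libraries 1, 2 and 3. Responses of the coenzyme Q genes that moved by over 1.5 times, or changed their call, without hypoxic library 3 are given both ways.

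In wild-type cells in air, COQ5 was the most abundant of the coenzyme Q genes per length, and after 18 h of hypoxia COQ2 took this place. COQ5 had 2639 ± 66.4 normalized counts per kb of coding sequence in air and 1203 ± 395 in hypoxia (SD, n = 3 each). COQ2 had 986 ± 67.9 per kb in air and 2557 ± 145 in hypoxia (SD, n = 3 each). The order below COQ5 in air was COQ1, COQ2, COQ4, COQ6, CAT5, COQ9, COQ8, COQ10 and COQ3. In it, the neighbours COQ2 and COQ4, COQ4 and COQ6, COQ6 and CAT5, and COQ9 and COQ8 overlapped between libraries. The span between the highest and the lowest gene per kb was 5.55-fold in air and 8.71-fold in hypoxia. In hypoxia the order was COQ2, COQ5, COQ4, COQ6, COQ1, COQ9, CAT5, COQ8, COQ3 and COQ10, in which COQ5 overlapped with COQ4, COQ4 with COQ6 and COQ6 with COQ1, as did COQ8 with COQ3 and COQ3 with COQ10. In set4Δ cells COQ5 also led in air, with 2711 ± 90.0 per kb, and COQ2 in hypoxia, with 2713 ± 365 (SD, n = 3 each). COQ5 came next in set4Δ cells in hypoxia, with a wide spread (1388 ± 737 per kb, SD, n = 3), and did not overlap with COQ2.

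The summed level of the 10 genes moved little. The sum was 10010 to 10373 normalized counts in the wild-type libraries in air and 9127 to 10635 in hypoxia, and the ranges overlapped. In set4Δ libraries it was 10284 to 10911 in air and 9901 to 12392 in hypoxia, again with overlap. Within the sum per kb, the share of COQ2 was 10.2% in air and 28.1% in hypoxia in wild-type cells, while the share of COQ5 was 27.3% and 12.9%. These shares are levels and carry no test.

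**Figure D1:**
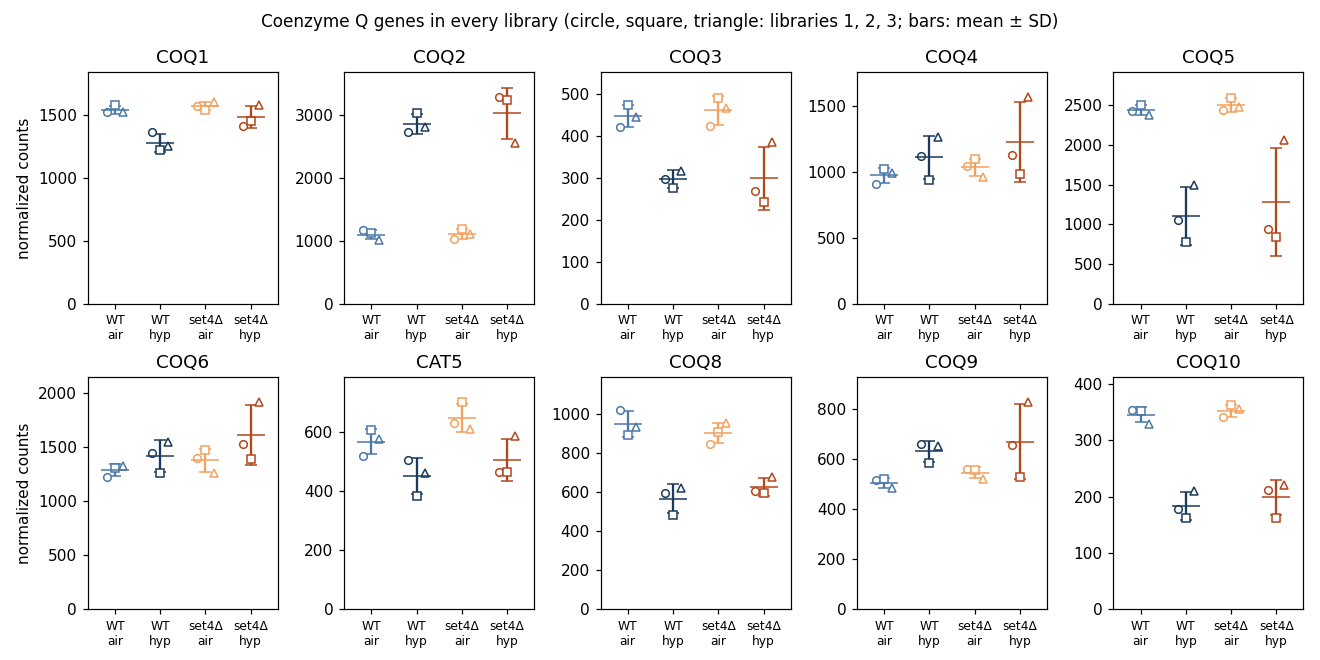
Normalized counts (vertical axes from 0) of the 10 coenzyme Q genes in the 12 libraries, with circles, squares and triangles for libraries 1, 2 and 3 and bars for the mean ± SD of each group. COQ2 lies at 2564 to 3298 in the 6 hypoxic libraries, above its 1020 to 1198 in air, and COQ5 lies below its values in air in each hypoxic library.

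The response to hypoxia was tested with limma on log2(value + 1) in each genotype, and a gene was counted as risen or fallen where its Benjamini-Hochberg adjusted p over all genes was at most 0.05 and its log2 fold change reached 1 in either direction. In wild-type cells 1 of the 10 genes rose (COQ2) and 1 fell (COQ5). Of all 6033 genes tested, 18.1% rose and 14.4% fell under this rule. In set4Δ cells COQ2 again rose and COQ5 again fell, where 18.6% and 15.5% of 6058 genes did. By the adjusted p alone, with no minimum fold change, 2 were higher and 6 lower in wild-type cells, against 40.0% and 39.5% of all genes. In set4Δ cells 1 was higher and 5 were lower by the adjusted p alone, against 39.6% and 39.8% of all genes. The 10 genes had a median log2 fold change of -0.31 in wild-type cells and -0.22 in set4Δ cells, and that of all genes tested was 0.01 in both. All 10 genes passed the filter on low values in every comparison.

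**Figure D2:**
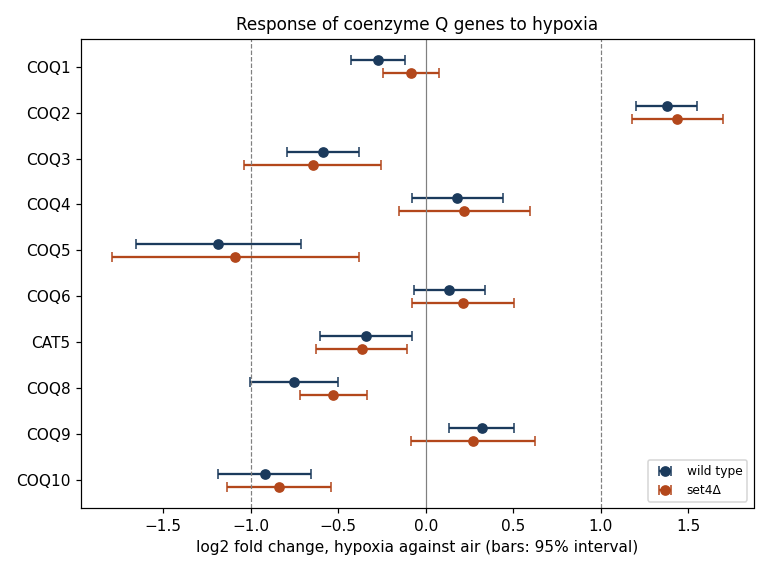
Log2 fold change of hypoxia against air (horizontal axis) with its 95% interval for each coenzyme Q gene, in wild-type and set4Δ cells. Dashed lines mark a log2 fold change of 1 in either direction. COQ2 lies at 1.38 and 1.44 and COQ5 at -1.19 and -1.09, and the other 8 genes lie between the dashed lines.

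The tail is made by COQ1 and attached to the ring by COQ2. COQ1 encodes the polyprenyl diphosphate synthase that sets the length of the tail. COQ1 had 1520, 1577 and 1521 normalized counts in wild-type libraries in air and 1361, 1220 and 1248 in hypoxia. All wild-type hypoxic libraries were below those in air, with a log2 fold change of -0.27 (standard error, SE, of 0.07, limma adjusted p = 0.00549), which is short of the minimum fold. Values in set4Δ libraries were 1567, 1539 and 1601 in air and 1410, 1452 and 1580 in hypoxia, where the groups overlapped (log2 fold change -0.09, adjusted p = 0.284, and -0.13 without hypoxic library 3, adjusted p = 0.0637).

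COQ2 encodes the transferase that joins the tail to the ring precursor 4-hydroxybenzoate. Its normalized counts were 1170, 1120 and 1020 in wild-type libraries in air and 2730, 3043 and 2811 in hypoxia. In set4Δ libraries they were 1035, 1198 and 1114 in air and 3298, 3244 and 2564 in hypoxia. The groups did not overlap in either genotype. COQ2 rose by 1.38 on the log2 scale in wild-type cells (SE 0.08, 95% interval 1.20 to 1.55, limma adjusted p = 1.04e-06), which is 2.59-fold, and by 1.44 in set4Δ cells (SE 0.11, adjusted p = 1.11e-05). In wild-type cells 88.0% of all genes tested had a lower log2 fold change.

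COQ2 lies on the minus strand of chromosome XIV, from 700541 to 701659 in the R64 assembly, as a single coding part. Its start codon is 235 bases away from that of MVD1, which is read in the opposite direction and encodes mevalonate diphosphate decarboxylase, an enzyme of the pathway that supplies isoprenoid units. MVD1 was named after its values were seen. It had 4370, 4410 and 4065 normalized counts in wild-type libraries in air and 9665, 9363 and 11361 in hypoxia. MVD1 rose by 1.24 on the log2 scale in wild-type cells (SE 0.09, limma adjusted p = 3.67e-06) and 1.13 in set4Δ cells (SE 0.08, adjusted p = 7.94e-06). Among the genes on the upstream side of the 10, MVD1 and GND2, beside COQ6, rose past the minimum fold in wild-type cells. Of all genes tested there, 18.1% did. COQ6 itself did not pass. On the downstream side, genes also rose or fell past the minimum fold. GND2 was likewise named after its values were seen. The stretch between COQ2 and MVD1 is shown since both genes start from it. It spans chrXIV:701660-701894, is 40.0% G or C, and is read from RefSeq R64 on the strand of COQ2, from the MVD1 side towards the COQ2 start codon.
COQ2 to MVD1: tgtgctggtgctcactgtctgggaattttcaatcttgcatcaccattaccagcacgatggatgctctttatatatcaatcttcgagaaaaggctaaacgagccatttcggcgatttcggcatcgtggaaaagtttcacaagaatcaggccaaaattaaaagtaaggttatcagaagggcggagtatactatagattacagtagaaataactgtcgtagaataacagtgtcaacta
None of the motifs searched on both strands, which were CCAAT (Hap2/3/4/5), ATTGTT (Rox1), CCCCGC and CCCCAC (Mig1), TCGTATA (Upc2) and the Hap1 motif, occurred in it.

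Of the ring methyltransferases, COQ3, which adds methyl groups to oxygen, and COQ5, which adds a methyl group to carbon, both had lower RNA levels in hypoxia, and COQ5 passed the minimum fold. COQ5 had 2428, 2504 and 2383 normalized counts in wild-type libraries in air and 1056, 777 and 1500 in hypoxia. The set4Δ libraries held 2436, 2597 and 2481 in air and 940, 841 and 2067 in hypoxia. Each hypoxic library was below every library in air of the same genotype, and hypoxic library 3 was the highest of its group in both genotypes. COQ5 fell by 1.19 on the log2 scale in wild-type cells (SE 0.20, 95% interval -1.66 to -0.71, limma adjusted p = 8.01e-04), which is 2.27-fold. In set4Δ cells it fell by 1.09 (SE 0.30, 95% interval -1.79 to -0.38, adjusted p = 0.011). Without wild-type hypoxic library 3 the log2 fold change was -1.43, and without set4Δ hypoxic library 3 it was -1.49. Without wild-type hypoxic library 2 it was -0.95, and without set4Δ hypoxic library 1 or 2 it was -0.92 or -0.84, all short of the minimum fold.

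COQ3 had 421, 474 and 445 normalized counts in wild-type libraries in air and 298, 276 and 317 in hypoxia. Libraries of set4Δ cells gave 423, 491 and 467 in air and 270, 243 and 384 in hypoxia. Again no library in hypoxia reached those in air. The log2 fold change of COQ3 was -0.59 in wild-type cells (SE 0.09, limma adjusted p = 4.04e-04) and -0.65 in set4Δ cells (SE 0.17, adjusted p = 0.00777).

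The ring is hydroxylated by the products of COQ6, a flavin-dependent monooxygenase gene, and CAT5, a gene of a di-iron hydroxylase. For COQ4 a role in ring decarboxylation is known from its human counterpart. COQ4 had 909, 1024 and 991 normalized counts in wild-type libraries in air and 1123, 944 and 1269 in hypoxia, and COQ6 had 1223, 1307 and 1323 in air and 1441, 1255 and 1545 in hypoxia. In set4Δ libraries COQ4 had 1045, 1096 and 964 in air and 1127, 989 and 1572 in hypoxia, and COQ6 had 1395, 1467 and 1258 in air and 1521, 1386 and 1913 in hypoxia. Both overlapped between air and hypoxia, and neither passed in wild-type or set4Δ cells. The log2 fold changes of COQ4 were 0.18 (95% interval -0.08 to 0.44, limma adjusted p = 0.166) and 0.22 (-0.15 to 0.60, adjusted p = 0.236). Those of COQ6 were 0.13 (95% interval -0.07 to 0.34, adjusted p = 0.191) and 0.22 (-0.08 to 0.51, adjusted p = 0.147). Without hypoxic library 3 they were 0.08 and 0.03 for COQ4 and 0.07 and 0.08 for COQ6. Without hypoxic library 2, in contrast, COQ4 and COQ6 in wild-type cells and COQ6 in set4Δ cells were higher by the adjusted p alone (adjusted p = 0.0167, 0.0264 and 0.0467).

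CAT5 had 520, 604 and 577 normalized counts in wild-type libraries in air and 503, 384 and 461 in hypoxia. The set4Δ libraries had 631, 700 and 610 in air and 464, 464 and 586 in hypoxia. The groups stood apart by a small margin in both genotypes. The log2 fold change of CAT5 was -0.34 (SE 0.11, limma adjusted p = 0.0241) and -0.36 (SE 0.11, adjusted p = 0.017), which is a call by the adjusted p alone. That call was lost in wild-type cells with libraries scaled to equal totals (adjusted p = 0.0885) and without library 2 or 3 in air or hypoxic library 2 (adjusted p = 0.0847, 0.0709 and 0.0591). In set4Δ cells it was lost without library 2 in air or hypoxic library 1 or 2 (adjusted p = 0.067, 0.0604 and 0.0554).

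COQ8 encodes an atypical kinase-like ATPase that the biosynthetic complex needs, and COQ9 a lipid-binding partner of Cat5. COQ8 had 1024, 893 and 937 normalized counts in wild-type libraries in air and 595, 484 and 623 in hypoxia. Values in set4Δ libraries were 849, 907 and 954 in air and 607, 595 and 678 in hypoxia. The groups did not overlap. The log2 fold change of COQ8 was -0.75 in wild-type cells (SE 0.11, limma adjusted p = 2.81e-04) and -0.53 in set4Δ cells (SE 0.08, adjusted p = 5.23e-04). COQ9 had 514, 518 and 482 normalized counts in wild-type libraries in air and 659, 583 and 650 in hypoxia. It was the only one besides COQ2 that was higher by the adjusted p alone in wild-type cells, at 0.32 (SE 0.08, adjusted p = 0.00594). That call was lost with quantile normalization (adjusted p = 0.14). In set4Δ libraries COQ9 had 561, 554 and 520 in air and 654, 526 and 827 in hypoxia, with overlap, and a log2 fold change of 0.27 (adjusted p = 0.135). It was 0.11 without hypoxic library 3 (adjusted p = 0.317) and 0.43 without hypoxic library 2 (adjusted p = 0.012).

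COQ10 encodes a lipid-binding protein that coenzyme Q needs for its function in respiration, though not for its synthesis. It had 354, 352 and 330 normalized counts in wild-type libraries in air and 178, 161 and 210 in hypoxia. The set4Δ libraries held 341, 362 and 355 in air and 212, 162 and 220 in hypoxia. The groups were far apart beside their spread. The log2 fold change of COQ10 was -0.92 in wild-type cells (SE 0.11, limma adjusted p = 1.17e-04) and -0.84 in set4Δ cells (SE 0.13, adjusted p = 4.58e-04), just inside the minimum fold. With quantile normalization it passed, at -1.32 and -1.21, as it did in wild-type cells without hypoxic library 3, at -1.02.

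The letters TGTANATA, the core of the site of Puf3, a protein that binds the messenger RNAs of many nuclear genes for mitochondrial proteins, were looked for on the sense strand in the 250 bases after each stop codon. They occurred after 6 of the 10 coenzyme Q genes, against 15.2% of 6001 genes searched. The 6 sites are shown because a match follows most of the 10 genes, with the match in capitals inside 30 bases of RefSeq R64. They lie at chrII:244300-244329 (plus strand, COQ1), chrXV:138062-138091 (minus, COQ3), chrXIII:49807-49836 (minus, COQ5), chrVII:1002493-1002522 (minus, COQ6), chrVII:285954-285983 (plus, COQ8) and chrXII:549421-549450 (minus, COQ9).
COQ1: tatattctataTGTAAATAgtttttatatg
COQ3: aggtatctgacTGTAAATAtcttcttatat
COQ5: aaataagtgacTGTACATAatataataata
COQ6: gaggtaTGTAAATAgaaatagactagctcc
COQ8: tccccgctattTGTATATAtgcatatcttt
COQ9: agttacataatTGTATATAaaagaaaattt
The 6 genes with a match had log2 fold changes of -1.19 to 0.32 in wild-type cells, with a median of -0.43, and the 4 without, COQ2, COQ4, CAT5 and COQ10, had -0.92 to 1.38 with a median of -0.08. Both sets held genes on either side of 0. PUF3 itself was higher in hypoxia by 0.50 (SE 0.08, limma adjusted p = 5.72e-04), short of the minimum fold.

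In the 300 bases before the start codon, CCAAT, the letters bound by the Hap2/3/4/5 activator of respiratory genes, occurred on either strand in 7 of the 10 genes, against 41.8% of 6001 genes. In COQ2 and COQ10 the matches lay inside the coding sequence of the neighbouring gene, which leaves COQ5, COQ6, CAT5, COQ8 and COQ9. The share over all genes includes matches inside neighbouring coding sequence, so it stands beside the 7 and not beside these. ATTGTT, a core of the site of the hypoxic repressor Rox1, occurred in 5 of 10, against 34.1% of all. CCCCAC occurred in COQ9 alone, against 4.6%. CCCCGC as well as TCGTATA and the Hap1 motif occurred in none of the 10, against 3.0%, 4.6% and 0.1%. A match is a description of these letters and not of binding. The match of COQ5 is shown because COQ5 is the one of the 10 genes that fell in both genotypes. It lies at chrXIII:51175-51204 on the minus strand, with the match in capitals.
COQ5 promoter: ctgttctcgatATTGGaacacagttatttg

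Genes that feed coenzyme Q synthesis or act beside it had a mixed response. Of 12 accessory genes with values, 1 rose in wild-type cells (COQ11), with a list median of 0.28. In set4Δ cells 1 rose (COQ11) and 1 fell (PTC7, the phosphatase that acts on Cat5), with a list median of 0.22. Over all genes tested, 18.1% rose and 14.4% fell in wild-type cells, and 18.6% and 15.5% in set4Δ cells. Without hypoxic library 3 PTC7 also fell in wild-type cells, where its log2 fold change had been -0.98. COQ11 encodes a protein of the biosynthetic complex. It had 335, 343 and 366 normalized counts in wild-type libraries in air and 739, 832 and 890 in hypoxia. Libraries of set4Δ cells gave 334, 388 and 302 in air and 1019, 1039 and 1104 in hypoxia. All hypoxic libraries were above all libraries in air. The log2 fold change of COQ11 was 1.23 in wild-type cells (SE 0.09, limma adjusted p = 4.61e-06) and 1.63 in set4Δ cells (SE 0.10, adjusted p = 3.79e-06). The difference of the responses, tested over all 12 libraries, was 0.40 for COQ11 (limma adjusted p = 0.259) and -0.09 for PTC7 (adjusted p = 0.81). Neither passed. None of the 5 genes of ERMES, the contact between endoplasmic reticulum and mitochondria, rose or fell past the minimum fold in either genotype, with log2 fold changes of -0.32 to 0.68 in wild-type cells. By the adjusted p alone, 3 of the ERMES genes were higher and 1 was lower in each genotype. Among all genes, 40.0% were higher and 39.5% lower by that rule in wild-type cells, and 39.6% and 39.8% in set4Δ cells.

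Genes of the enzymes that reduce coenzyme Q and of the complex that oxidizes it rose in part in both genotypes. Of 10 genes of dehydrogenases that reduce coenzyme Q, 7 rose in wild-type cells and none fell, with a median log2 fold change of 1.18. Over all genes tested, 18.1% rose and 14.4% fell. In set4Δ cells 6 rose and 1 fell (NDE1, an external NADH dehydrogenase gene, at -1.42), with a median of 1.19, where 18.6% and 15.5% of all genes did. For NDE1 the difference of the responses was -0.67 and did not pass (limma adjusted p = 0.203). The largest changes in wild-type cells were those of the proline dehydrogenase gene PUT1, at 5.17 (SE 0.24), the glycerol-3-phosphate dehydrogenase gene GUT2, at 2.74 (SE 0.14), NDE2, at 2.18 (SE 0.32), and the succinate dehydrogenase gene SDH1, at 1.85 (SE 0.21). PUT1 had 125, 159 and 165 normalized counts in wild-type libraries in air and 5410, 7639 and 3772 in hypoxia, where library 3 was the lowest.

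Of 9 nuclear genes of complex III, 5 rose in wild-type cells and 3 in set4Δ cells, and none fell, with medians of 1.22 and 0.86. Under the same rule 18.1% of all genes rose in wild-type cells and 18.6% in set4Δ cells, and 14.4% and 15.5% fell. The difference of the responses, tested over all 12 libraries, had a median of -0.34 in this list. It ran from -0.48 to -0.13 and was called for 0 of the 9, against 1.34% of all genes. QCR10, the largest in size, missed the threshold narrowly at -0.48 (SE 0.10, limma adjusted p = 0.05 after rounding). QCR9 and CYT1, for a small subunit and cytochrome c1, led with 1.88 (SE 0.12) and 1.87 (SE 0.08) in wild-type cells, followed by QCR10 with 1.39 (SE 0.08) and the iron-sulfur protein gene RIP1 with 1.34 (SE 0.07). Their adjusted p-values from limma were 2.34e-06, 3.84e-07, 1.31e-06 and 7.44e-07. Beside these, the median of the 10 coenzyme Q genes was -0.31. Without hypoxic library 3, 5 dehydrogenase genes rose in set4Δ cells, and the other counts of these lists stayed as they were. How the lists differ was not tested.

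Of 12 regulators, 5 rose and 1 fell in wild-type cells, and 6 rose and 1 fell in set4Δ cells, with medians of 0.91 and 0.98. Over all genes tested, 18.1% rose and 14.4% fell in wild-type cells, and 18.6% and 15.5% in set4Δ cells. Without hypoxic library 3, 6 rose in wild-type cells, with ROX1, the gene of the hypoxic repressor, at 1.11 in place of 0.98. The largest changes in wild-type cells were those of CAT8, an activator of genes for non-fermentable carbon sources (3.83, SE 0.17), UPC2, an activator of sterol genes (2.69, SE 0.11), HAP1, a heme-dependent factor (1.53, SE 0.09), and MIG1, a repressor in glucose (1.49, SE 0.08). The gene that fell in both genotypes was HAP4, which encodes the activating subunit of the Hap2/3/4/5 complex and was named after its values were seen. It had 5086, 5326 and 5273 normalized counts in wild-type libraries in air and 2243, 1512 and 2856 in hypoxia. The set4Δ libraries had 5382, 5110 and 5259 in air and 1325, 1418 and 3386 in hypoxia. As for COQ5, library 3 was the highest hypoxic library in both genotypes, and wild-type library 2 the lowest of its genotype. The lowest set4Δ hypoxic library was 1 for HAP4 and 2 for COQ5. Over all 6018 genes, library 3 was the highest in both genotypes for 27.5%. HAP4 fell by 1.29 on the log2 scale in wild-type cells (SE 0.20, limma adjusted p = 4.08e-04) and 2.83-fold in set4Δ cells (SE 0.32 on the log2 scale, adjusted p = 0.00305). Without hypoxic library 3 it fell 2.84-fold and 3.83-fold. Its part in the COQ5 levels was not tested.

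**Figure D3:**
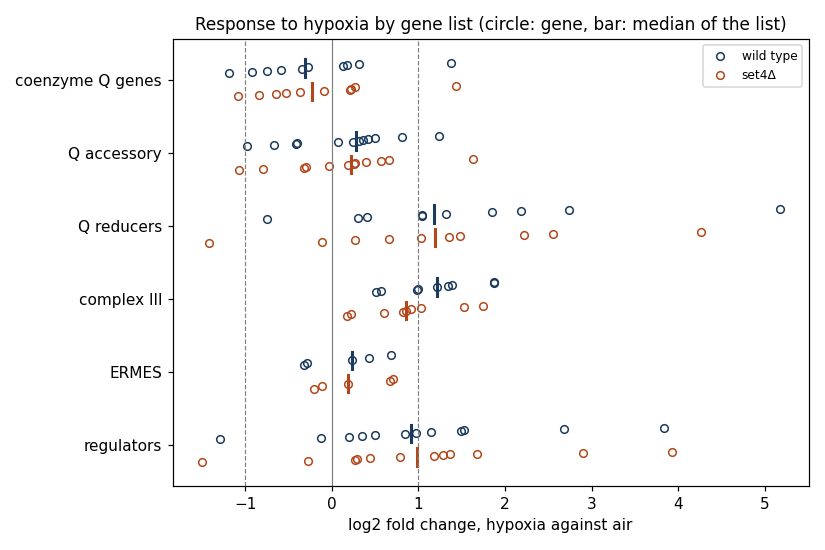
Log2 fold change of hypoxia against air (horizontal axis) of each gene, as a circle, in 6 gene lists, for wild-type and set4Δ cells. Short vertical bars are list medians and dashed lines a log2 fold change of 1 in either direction. The median of the coenzyme Q genes is -0.31 in wild-type cells and that of the Q reducers 1.18.

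The spread between hypoxic libraries differed among the coenzyme Q genes. In air the SD of COQ5 was 2.52% of the mean in wild-type libraries and 3.32% in set4Δ libraries. In hypoxia it was 32.9% and 53.1%, above 96.2% and 99.0% of all genes with a mean of at least 10. COQ1, in contrast, varied by 5.86% and 5.98% in hypoxia, against a median over all genes of 8.84% and 9.06%. Hypoxic library 3 was the highest of its group in both genotypes for 6 of the 10 genes, COQ3, COQ4, COQ5, COQ6, COQ8 and COQ10, and the lowest in both for none. Over all 6018 genes it was the highest in both for 27.5% and the lowest in both for 28.2%. COQ2 was the one gene whose set4Δ hypoxic library 3 was the lowest of its group.

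**Figure D4:**
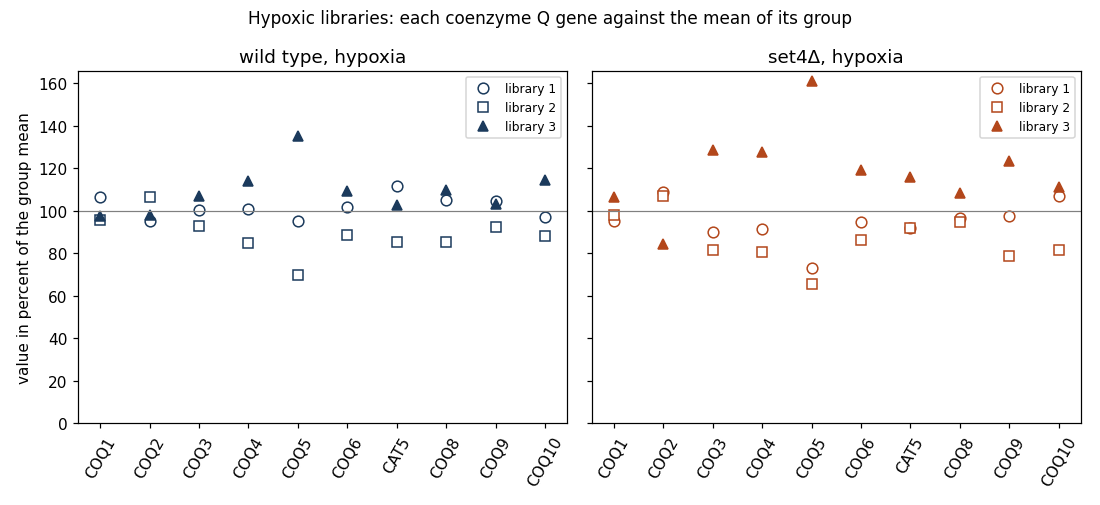
Value of each coenzyme Q gene in the 3 hypoxic libraries as a percentage of the mean of its group (vertical axis from 0), for wild-type (left) and set4Δ cells (right), with library 3 as filled triangles. COQ5 is the most spread of the 10, with an SD of 32.9% and 53.1% of the mean.

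Loss of Set4 altered none of the 10 genes past the threshold. Between set4Δ and wild-type cells in air, limma called 0 of the 10 at an adjusted p of at most 0.05, where it called 0.0516% of all 5814 genes. An unadjusted p under 0.05 was found for 0 of the 10 and for 4.82% of all genes. The log2 fold changes ran from -0.11 for COQ8 (95% interval -0.26 to 0.03) to 0.15 for CAT5 (-0.01 to 0.32), and all groups overlapped. The intervals of the 10 genes in air lay within 0.32 of 0.

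In hypoxia, limma called 0 of the 10 between set4Δ and wild-type cells, where it called 1.21% of 5875 genes, and 0 of the 10 had an unadjusted p under 0.05, against 13.2% of all genes. The log2 fold changes ran from -0.04 for COQ3 (95% interval -0.46 to 0.38) to 0.19 for COQ1. COQ1 had 1336, 1201 and 1221 normalized counts in wild-type libraries and 1360, 1391 and 1541 in set4Δ libraries of the table of this comparison. It did not pass (SE 0.08, 95% interval -0.01 to 0.39, limma adjusted p = 0.385). The interval of COQ5 was the widest, from -0.79 to 1.02, and includes differences close to the size of its response to hypoxia. With both hypoxic libraries numbered 3 left out, an alternative added after the data were seen, the log2 fold changes were 0.12 for COQ1 and -0.06 for COQ5, and 0 of the 10 passed.

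The difference between the responses of the genotypes, tested over all 12 libraries, was called for 0 of the 10, against 1.34% of 6025 genes, and by an unadjusted p under 0.05 for 0 of the 10, against 11.9% of all. The largest differences, set4Δ minus wild type on the log2 scale, were 0.22 for COQ8 (95% interval -0.08 to 0.53, limma adjusted p = 0.608) and 0.19 for COQ1 (-0.01 to 0.38, adjusted p = 0.442). For COQ2 the difference was 0.06 (-0.25 to 0.37). COQ1, which was lower by the adjusted p alone in wild-type cells only, is thus not shown to respond differently in set4Δ cells.

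**Figure D5:**
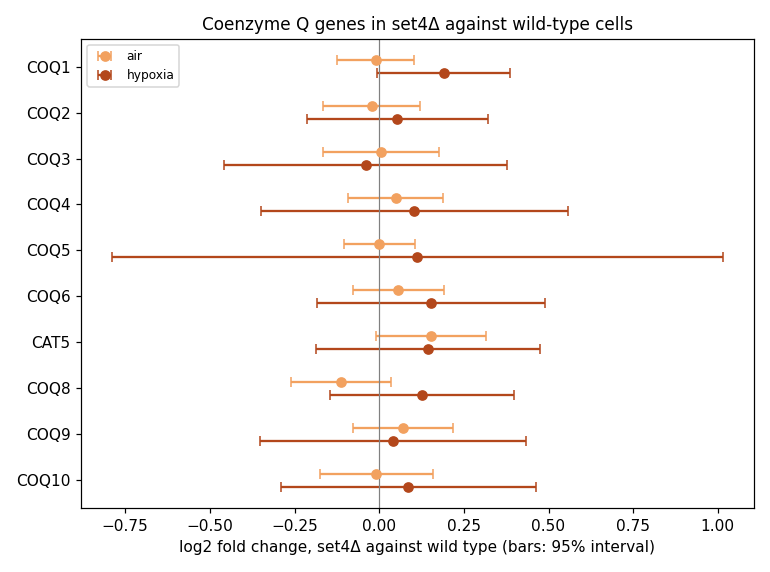
Log2 fold change of set4Δ against wild-type cells (horizontal axis) with its 95% interval for each coenzyme Q gene, in air and in hypoxia. Every interval includes 0, and that of COQ5 in hypoxia is the widest, from -0.79 to 1.02.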

How the data were processed

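RNA depleted of ribosomal RNA was made into stranded libraries. Per the labels, the authors used FastQC and Trimmomatic 0.36 on the reads, mapped them with STAR 2.5.2b, and took gene counts from featureCounts (Subread 1.5.2). Genome build, strand setting and treatment of reads that map repeatedly are not given in the sources. The signal values in the deposited tables are counts that the authors divided by DESeq2 size factors, set separately for each table of 6 libraries. The deposited tables also hold log2 fold changes, p-values, adjusted p-values and a local FDR score that the authors computed for their own comparisons, and none of these was used.

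For air, 1 wild-type column was out of step with the gene names (5825 values for 5822 genes). The copy of this library in the wild-type hypoxia table, in which 99.97% of the values recur after scaling by 1.04, was used in its place. Library numbers 1 and 3 are exchanged between tables. Libraries were therefore matched by a constant ratio of values, and the numbering of the hypoxia-against-air tables is used. From the comparison in air 3 nameless entries and 8 genes that lack some of the 6 values were dropped, and 1 nameless entry from that in hypoxia.

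Each comparison was fitted with limma 3.58.1 in R 4.3.3, using a variance trend, on log2(value + 1), where a gene averaged 10 or more in some group. p-values were adjusted after Benjamini and Hochberg over all genes, with a threshold of 0.05. Fold changes are on the log2(value + 1) scale. The test was checked on simulated data. No count model was fitted. In all libraries the values up to 60 were whole multiples of 1 step, within 0.02, which gave the depth. No coenzyme Q gene overlaps another annotated gene or holds a 50-base word repeated in the genome. Sequences and places are those of RefSeq R64 and were matched by gene name for all 10. Matches were looked for within 300 bases before the start codon and 250 after the stop codon. Tables and plots were made in Python 3.11.15 (pandas 2.3.3, numpy 2.4.6, matplotlib 3.10.9).

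The 10 genes, the other lists and the tests were chosen with earlier results of these data known. Named are all 10 genes, SET4, and from each other list up to 4 genes past the test with the largest change in the wild-type response. COQ11, PTC7 and NDE1 are list members that make up counts of 1. HAP4, PUF3, ROX1, MVD1 and GND2 were chosen after their values were seen, and STE2 and STE3 were named to check the strain. OCT1 and COB of these lists had no values and were not analysed here.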

Additional observations from a re-analysis of the deposited data

How the results depend on the processing

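Under the alternatives run (pseudocounts of 0.5 and 5, no filter or a mean of at least 50, no variance trend, robust estimation, equal totals, quantile normalization, each library left out, the replicate block), the count of coenzyme Q genes that rose in hypoxia stayed at 1 in both genotypes. The count that fell was 2 with quantile normalization in both genotypes, and it ranged from 0 to 2 in wild-type cells and from 0 to 1 in set4Δ cells when each library was left out in turn. By the adjusted p alone 2 were higher and 6 lower in wild-type cells and 5 lower in set4Δ cells. In wild-type cells the call of CAT5 by the adjusted p alone was lost with equal totals and without library 2 or 3 in air or library 2 in hypoxia, where COQ4 and COQ6 gained one. In set4Δ cells it was lost without library 2 in air or without hypoxic library 1 or 2, and COQ6 and COQ9 gained one without hypoxic library 2. Quantile normalization moved the median of all genes by -0.11 in the wild-type response, and relative to that shift COQ2 stood at 1.47, COQ5 at -1.11 and COQ10 at -1.21.

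Between the genotypes, and for the difference of responses, 0 of the 10 genes passed under any alternative, with each library left out as well (0 to 0). With 1 library left out, the log2 fold changes in hypoxia ranged from -0.095 to 0.25 for COQ4, from -0.30 to 0.36 for COQ5 and from -0.13 to 0.21 for COQ9. The lowest values, which are below 0, were those without set4Δ hypoxic library 3, and none passed. Counts over all genes depended more on single libraries. In hypoxia 71 genes were called, 17 to 93 with 1 library left out and 388 without both libraries numbered 3. For the difference of responses 81 were called, 31 to 119 with 1 left out and 283 without both. In air 3 were called, 1 to 7 with 1 left out, and 1 with quantile normalization or no variance trend. Of the 3 calls 33.3% were higher, and 0% with equal totals or quantile normalization. Under the fold rule 1958 and 2066 genes were called in the responses, and 4798 and 4808 by the adjusted p alone.

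Libraries with the same number deviated together in some pairs only. Between genotypes in hypoxia, same-numbered libraries correlated over genes at 0.03, 0.71 and 0.73 for numbers 1, 2 and 3. Wild-type hypoxic library 2 also correlated with set4Δ hypoxic library 1, at 0.75. For the other comparisons, same-numbered pairs ran from -0.27 to 0.22. The labels do not say whether a number marks a shared batch, and the main fits held no replicate block. With the replicate block, 1 coenzyme Q gene rose and 1 fell in each response and 0 passed elsewhere, while the count over all genes in hypoxia went from 71 to 436. With 3 libraries a group, small differences between genotypes were not detectable, as the intervals show.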
